A study of Homo sapiens with 9 samples.

Results

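The genes described here are the heat shock proteins, chaperonins and their partners of human cells: 51 genes of the 57766 in the expression table, chosen by gene symbol from a list of heat shock factors, HSP70, HSP110, HSP90, HSP40, small heat shock, BAG and HSP90 partner proteins, the cytosolic chaperonin and mitochondrial HSP60. Every one of the 51 symbols matched 1 row of the table. The set is called cytosolic, but it also holds TRAP1, HSPD1, HSPE1 and DNAJA3, whose proteins work in mitochondria, HSPA13 of microsomes, DNAJB12 of the endoplasmic reticulum membrane, and HSPB11, a subunit of the transport machinery of cilia. The rule names genes and uses no measured value, but the list was drawn up with earlier results of these data known.

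Chaperones bind unfolded stretches of other proteins and keep them from aggregating while they fold. HSP70 proteins bind and release such stretches in a cycle driven by ATP, J-domain proteins (HSP40) bring clients to them and start the hydrolysis of ATP, and HSP110 and BAG proteins release the spent nucleotide. HSP90 then matures clients such as kinases and steroid receptors, and the chaperonin CCT, a double ring of 8 different subunits, folds actin and tubulin in its cavity. The transcription factor HSF1 is held inactive by chaperones in unstressed cells, and when unfolded proteins draw these away it binds heat shock elements, repeats of the letters GAA in alternating orientation, and raises transcription of inducible chaperone genes. Several of these proteins bind zinc themselves: type A J-domain proteins carry a zinc-binding cysteine-rich region, and CHORDC1 carries zinc-binding CHORD domains.

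HEK293 Freestyle cells are an established line of human embryonic kidney origin that grows in suspension. Their polyadenylated RNA was sequenced after 36 h in Zn(II)-depleted Freestyle medium (depleted), in repleted Freestyle medium (repleted) or in untreated Freestyle medium (full), with 3 libraries per group. All groups came from cells held beforehand in untreated Freestyle medium and washed in PBS, and the labels call the replicates biological triplicates without saying whether they began as separate cultures. Levels are in RPKM, read numbers scaled to gene length and library size, so that genes can be compared per length.

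The zinc status of the cultures was judged from the RNA of 3 genes and not from a measurement of zinc. In repleted libraries the means of all 3 lay above those of depleted libraries but below those of full libraries. MT2A, a metallothionein that binds zinc, averaged 6.46 ± 0.687 RPKM in depleted, 93.5 ± 3.34 in repleted and 191 ± 8.90 in full libraries (SD, n = 3 each). MT1X averaged 1.78 ± 0.663, 65.6 ± 7.99 and 151 ± 12.2 RPKM in the same order, and the zinc exporter SLC30A1 6.93 ± 0.276, 11.7 ± 0.635 and 16.4 ± 0.369 RPKM. The line's markers VIM, LIN28B, NEFM and PAX2 summed to 681 to 704 RPKM in depleted, 622 to 638 in repleted and 619 to 629 in full libraries. VIM made up nearly all of that sum, PAX2 averaged 0.600, 3.02 and 3.29 RPKM in the same order, and 9 markers of other cell types together stayed between 0.82 and 1.59 RPKM in every library, with INS at 0. VIM rose in depleted medium and PAX2 and LIN28B fell, and their part in the results was not tested. The steps in which low values occur put the depth at 16800000 to 23500000 reads per library. Because each library holds a whole culture, fewer cells that express a gene and less of its RNA per cell cannot be told apart, and RPKM are relative to all other RNA in the library.

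Of the 51 genes, 49 passed the filter of at least 1 RPKM in at least 3 libraries. Changes are given as differences in mean log2(RPKM + 1), a scale on which the differences of weakly expressed genes come out smaller, and p-values are those of limma with Benjamini-Hochberg adjustment over all 15774 genes tested and a threshold of 0.05. Depleted against full medium was read first for the stated aim, the response of this line to Zn(II) starvation. Full medium is untreated, so lack of zinc and other effects of the depletion treatment cannot be told apart there. Depleted against repleted medium bears on the same aim, but the labels do not say what was added to repleted medium. In depleted against full medium, 19 of the 49 rose and 16 fell, against a background of 60.9% of all tested genes called in either direction (29.8% higher and 31.2% lower). The members' share was 71.4%, and their median absolute difference was 0.27, against 0.36 over all tested genes. In 7 of the 10 families some members rose and others fell, and the median of their signed differences was 0.02, against 0.0008 over all tested genes. Changes of at least 0.5 in size were called for 8 members that rose and 8 that fell, against 13.8% and 19.2% of all tested genes. The libraries of the groups did not overlap for 40 members, against 67.6% of all tested genes.

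In depleted against repleted medium, 22 members rose and 14 fell, with 60.7% of all tested genes called (29.5% higher and 31.2% lower). Changes of at least 0.5 were called for 10 members that rose and 7 that fell, against 13.8% and 18.9% of all tested genes, and 36 members did not overlap, against 65.2%. Both comparisons use the same 3 depleted libraries, so their similarity is partly built in. Their calls differed for 7 members: CHORDC1 passed as higher and HSPA8 and BAG5 as lower against full medium alone, and HSF1, HSPA13, DNAJB6 and BAG2 as higher against repleted medium alone. Whether those effects differ between the comparisons is the test of repleted against full medium, which none of them passed.

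**Figure D1:**
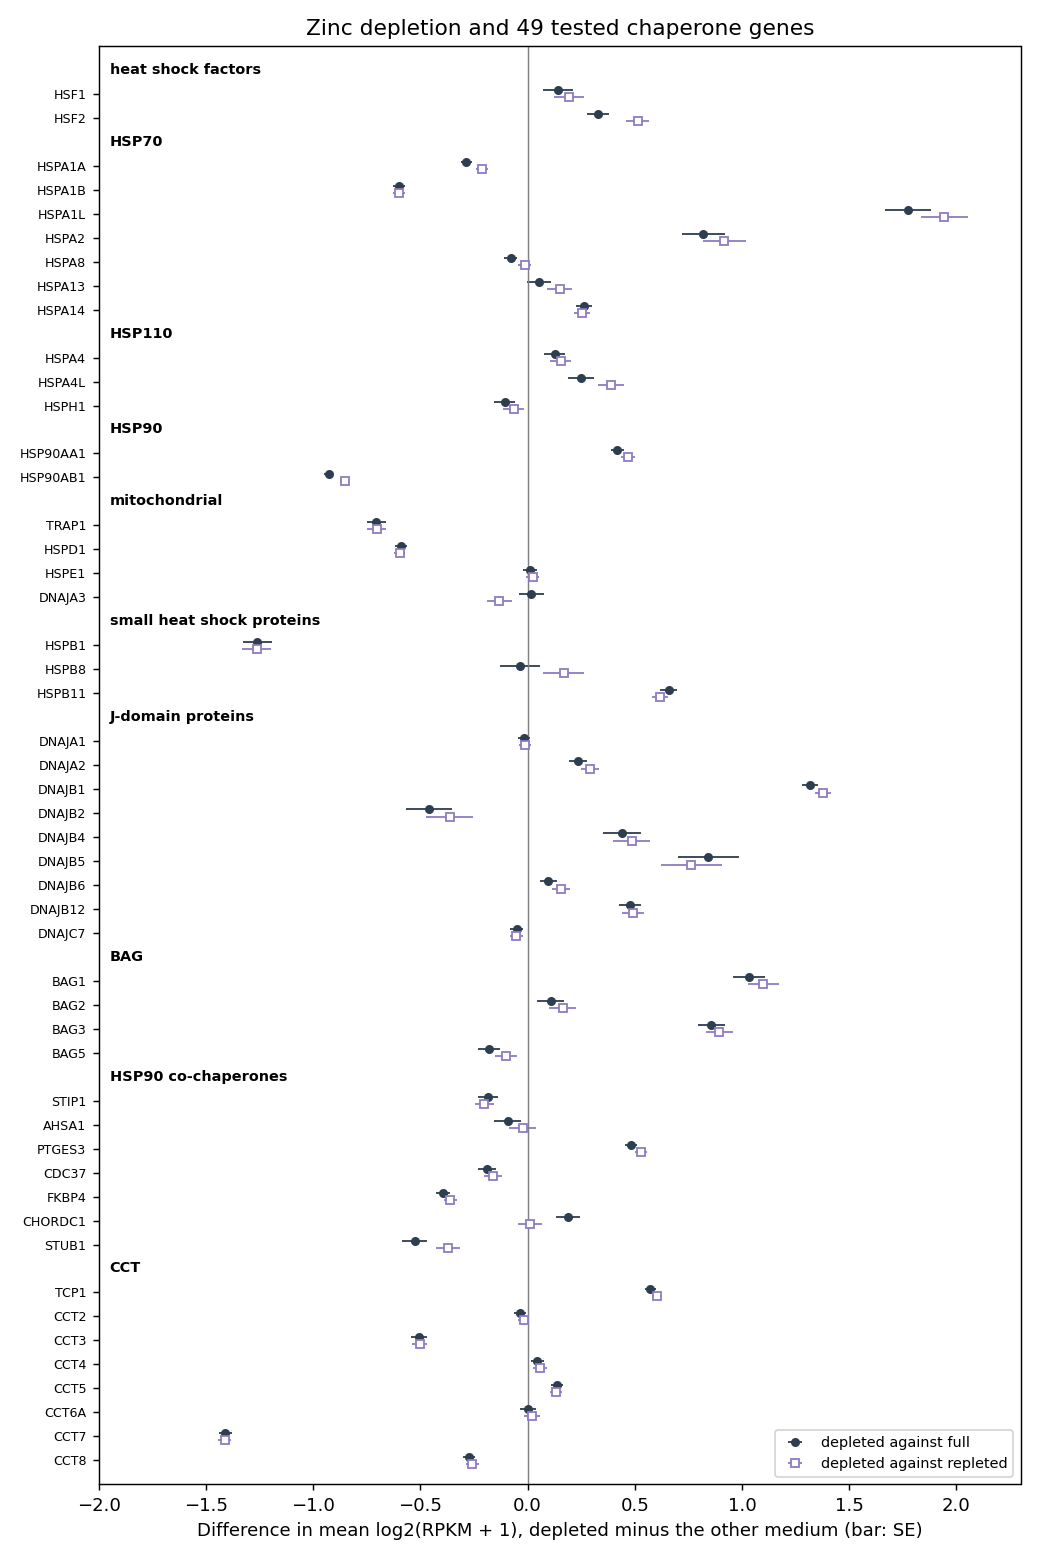
Difference in mean log2(RPKM + 1) of each of the 49 tested genes, by family, in depleted against full medium (filled circles) and in depleted against repleted medium (open squares); bars are standard errors. Members lie on both sides of 0 in most families, with HSPA1L at 1.78 and CCT7 at -1.41 as the ends of the range against full medium.

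Of the heat shock factors, HSF1 (ENSG00000185122) is the main activator of the heat shock response and HSF2 (ENSG00000025156) a related factor that can form trimers with it. HSF1 read 72.6, 65.4 and 73.5 RPKM in depleted, 67.8, 57.1 and 60.0 in repleted and 60.7, 64.0 and 66.3 in full libraries. The groups overlapped, and the difference of 0.14 against full medium did not pass (SE 0.07, adjusted p = 0.0999). Leaving out depleted library 2 or repleted library 1 brought that adjusted p to 0.0449 and 0.0489, and median centring brought it to 0.0379. Against repleted medium HSF1 passed by a narrow margin (0.19, adjusted p = 0.0354), and it did not pass in 7 of 15 alternative settings, among them those without depleted library 1 (adjusted p = 0.101), depleted library 3 (0.112), repleted library 2 (0.1235) or repleted library 3 (0.0922). HSF2 read 28.1, 30.5 and 30.4 RPKM in depleted, 19.4, 21.1 and 20.9 in repleted and 23.6, 23.8 and 22.8 in full libraries. All depleted libraries lay above all others, with a rise of 0.33 against full medium (adjusted p = 0.000448) and of 0.51 against repleted medium (adjusted p = 2.32e-05).

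Heat shock elements were searched by their letters in RefSeq promoter windows of GRCh38.p14, 250 bases before to 50 after a gene's start, on both strands, and 44 of the 51 members matched a window. Elements of 3 units, GAANNTTC followed directly by NNGAA, occurred in 4 members (HSPA8, CHORDC1, DNAJA1 and DNAJB6), 9.09% of those matched, against 0.49% of all 35116 promoters. Of the shorter elements, which the longer one contains, GAANNTTC occurred in 11 members (25%) against 6.77% of all promoters, and TTCNNGAA in 5 (11.4%) against 7.74%. GAANNTTC was present in 3 of 17 members that rose against full medium, 4 of 14 that fell and 4 of 13 others. The matches of HSPA1L, which rose, and HSPA1A, which fell, are the same bases read on opposite strands. These counts therefore hold that element for both genes. Only exact letters were matched, so elements that deviate from them were not counted. The inducible genes DNAJB1, HSPH1 and HSP90AA1 had no match to a heat shock element. The core of the metal response element, TGCACNC or TGCGCNC, occurred in 16 members (36.4%) against 29.6% of all promoters, in 5 of the 17 that rose, 7 of the 14 that fell and 4 of the 13 others. Here too, the matches of HSPD1, which fell, and HSPE1, which did not pass, are the same bases, counted for both genes. A match is a description of letters and not evidence of binding.

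The promoters of HSPA8 (chr11:123062087-123062386, minus strand), CHORDC1 (chr11:90223000-90223299, minus strand) and HSPA1A (chr6:31815293-31815592, plus strand) are shown because they hold heat shock elements, while their RNAs differed by -0.08, 0.19 and -0.29 between depleted and full medium. Capitals mark the letters of heat shock elements, and each window runs 5′ to 3′ on the gene's strand.
HSPA8: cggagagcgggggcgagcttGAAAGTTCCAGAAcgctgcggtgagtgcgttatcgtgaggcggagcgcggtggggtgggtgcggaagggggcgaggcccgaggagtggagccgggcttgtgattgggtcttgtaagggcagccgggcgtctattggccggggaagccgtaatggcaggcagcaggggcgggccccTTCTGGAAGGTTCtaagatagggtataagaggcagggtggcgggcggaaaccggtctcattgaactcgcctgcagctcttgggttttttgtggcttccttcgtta
CHORDC1: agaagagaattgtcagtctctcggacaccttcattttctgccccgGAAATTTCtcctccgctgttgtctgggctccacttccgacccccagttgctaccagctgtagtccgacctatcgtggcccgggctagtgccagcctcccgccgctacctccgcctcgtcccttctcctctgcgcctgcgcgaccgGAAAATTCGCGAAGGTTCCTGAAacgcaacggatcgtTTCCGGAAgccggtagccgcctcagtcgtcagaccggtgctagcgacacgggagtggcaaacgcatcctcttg
HSPA1A: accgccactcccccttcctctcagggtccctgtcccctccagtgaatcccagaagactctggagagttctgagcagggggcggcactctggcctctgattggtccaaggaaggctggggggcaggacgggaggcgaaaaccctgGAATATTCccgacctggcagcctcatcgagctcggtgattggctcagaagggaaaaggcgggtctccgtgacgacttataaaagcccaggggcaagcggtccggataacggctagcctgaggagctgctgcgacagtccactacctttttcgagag
HSPA8 holds 2 separate elements of 3 units, CHORDC1 a run of overlapping units with a shorter element on each side, and HSPA1A a single GAANNTTC within this window. The window ends 250 bases before the start, so elements farther upstream were not searched.

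Of the 7 HSP70 genes, 3 rose and 3 fell in depleted against full medium, a called share of 85.7% beside 60.9% of all tested genes. HSPA1A (ENSG00000204389) and HSPA1B (ENSG00000204388) encode near-identical stress-inducible HSP70 proteins and were the most strongly expressed members of the whole set. HSPA1A read 3182, 3026 and 3085 RPKM in depleted, 3719, 3544 and 3510 in repleted and 3767, 3736 and 3821 in full libraries. It ranked between 5 and 6 among protein-coding genes by RPKM in depleted libraries and 2 in every repleted and full library. Its level in depleted medium was 0.821 of that in full medium (log2 difference -0.29, SE 0.03, adjusted p = 1.31e-05), and it also fell against repleted medium (-0.21, adjusted p = 9.29e-05). Under quantile normalization these differences were -0.49 and -0.46.

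HSPA1B read 1804, 1696.5 and 1716 RPKM in depleted, 2663, 2584 and 2658 in repleted and 2589, 2671 and 2648 in full libraries. It fell by 0.60 on the log2 scale against either medium (adjusted p = 1.02e-07 against full and 1.01e-07 against repleted), to 0.660 of its level in full medium. Because the sequences are so alike, reads may have been split between both genes in counting, and their separate values are uncertain. The ratio of HSPA1A to HSPA1B within a library was 1.78 ± 0.0169 in depleted, 1.36 ± 0.0386 in repleted and 1.43 ± 0.0296 in full libraries (SD, n = 3 each). Together they made up 1.11%, 1.44% and 1.48% of length-weighted RPKM in the same order.

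HSPA1L (ENSG00000204390), another HSP70 gene next to them that is expressed mainly in testis, showed the largest rise of the 49 tested members on the log2(RPKM + 1) scale. It read 16.3, 13.5 and 15.1 RPKM in depleted, 2.72, 3.12 and 3.63 in repleted and 4.02, 3.26 and 3.72 in full libraries. Its lowest depleted library stood above every other library by a wide margin. The mean level was 4.09 times that in full medium (1.78, SE 0.11, adjusted p = 7.71e-07) and 4.75 times that in repleted medium (1.94, adjusted p = 4.32e-07). HSPA1L and HSPA1A lie head to head with starts 260 bases apart, so the HSPA1A window printed above shares 241 bases with the window of HSPA1L, and the element it holds lies between both starts.

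HSPA2 (ENSG00000126803), an HSP70 needed for sperm formation in mice, read 21.9, 22.8 and 22.4 RPKM in depleted, 10.2, 13.4 and 10.7 in repleted and 12.2, 13.6 and 11 in full libraries. It was 1.82 times as high in depleted as in full medium (0.82, adjusted p = 8.21e-05) and 1.96 times as high as in repleted medium (0.92, adjusted p = 3.83e-05). HSPA14, which works with a J-domain protein at the ribosome, averaged 55.2 ± 1.23, 46.2 ± 1.2 and 45.8 ± 0.886 RPKM in depleted, repleted and full libraries, a rise of 0.26 and 0.25.

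HSPA8 (ENSG00000109971), the constitutive HSC70, read 600.0, 618 and 640 RPKM in depleted, 611, 623 and 642 in repleted and 662, 649 and 651 in full libraries. The difference of -0.08 against full medium passed (adjusted p = 0.0388) but was lost in 8 of 15 alternative settings, including the removal of any full library (0.0690 to 0.110), of depleted library 1 or 2 (0.130 and 0.0851) or of repleted library 2 (0.0502). Median centring brought it to -0.03 (adjusted p = 0.473) and quantile normalization to -0.16 (adjusted p = 0.000367). The difference of -0.01 against repleted medium did not pass (adjusted p = 0.697), but did under quantile normalization (-0.11, adjusted p = 0.00368). HSPA13, an HSP70-like protein of microsomes, averaged 29.8, 26.8 and 28.6 RPKM in depleted, repleted and full libraries. It did not pass against full medium (0.05), and its difference of 0.15 against repleted medium (adjusted p = 0.0437) was lost in 11 of 15 settings, with adjusted p from 0.0551 to 0.140 without any full library, depleted library 2 or 3, or repleted library 1 or 2. Summed, HSPA1A, HSPA1B and HSPA8 came to 5456 ± 123 RPKM in depleted, 6851 ± 127 in repleted and 7065 ± 52.0 in full libraries.

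**Figure D2:**
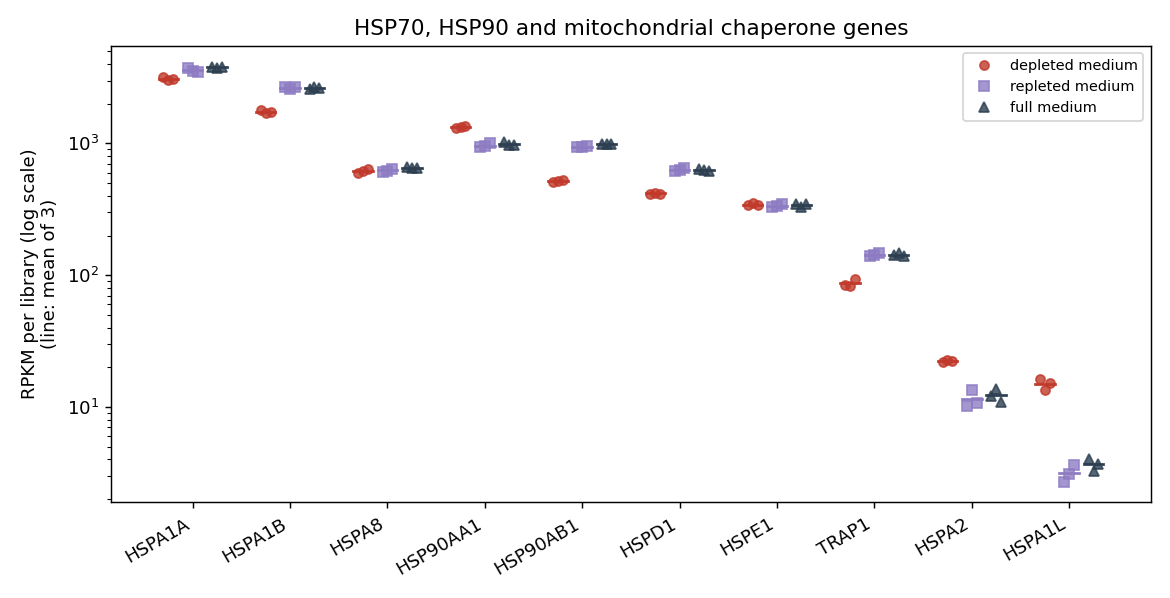
RPKM per library (log axis) of HSP70, HSP90 and mitochondrial chaperone genes in depleted, repleted and full medium; points are single libraries and lines the mean of 3. HSPA1L and HSPA2 stand higher in depleted libraries, HSPA1A, HSPA1B, HSP90AB1 and HSPD1 lower, and HSPE1 overlaps between groups.

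The HSP110 proteins, nucleotide exchange factors of HSP70, changed little. HSPA4L averaged 42.6 ± 0.716 RPKM in depleted, 32.3 ± 2.97 in repleted and 35.7 ± 0.821 in full libraries, with rises of 0.25 (adjusted p = 0.00577) and 0.39. HSPA4 averaged 128 ± 1.84, 115 ± 6.60 and 117 ± 6.15 RPKM in the same order. Its differences of 0.13 against full (adjusted p = 0.0485) and 0.16 against repleted medium (0.021) passed, the first being lost in 8 of 15 settings and the second in 5. For the first, adjusted p lay between 0.0585 and 0.168 without any depleted library, full library 2 or 3, or repleted library 2, and for the second between 0.0517 and 0.0733 without depleted library 1 or 3 or repleted library 1 or 2. The heat-inducible HSPH1 averaged 53.7 ± 2.32, 56.3 ± 3.03 and 57.9 ± 1.76 RPKM and did not pass either test (-0.11, adjusted p = 0.0882 against full medium), though it passed against full medium under quantile normalization (-0.16, adjusted p = 0.0248).

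The cytosolic HSP90 genes moved in opposite directions. HSP90AA1 (ENSG00000080824), the stress-inducible form, read 1307, 1332 and 1357 RPKM in depleted, 935, 953 and 1000.4 in repleted and 1029.7, 980.4 and 979 in full libraries. It rose by 0.42 against full medium (SE 0.03, adjusted p = 2.94e-06) and by 0.47 against repleted medium (adjusted p = 1.39e-06). HSP90AB1 (ENSG00000096384), the constitutive form, read 514, 522 and 527 RPKM in depleted, 933, 935 and 957 in repleted and 994, 992 and 990.45 in full libraries. It fell by 0.93 against full medium (SE 0.02, adjusted p = 2.05e-09), to 0.525 of that level, and by 0.85 against repleted medium (adjusted p = 3.09e-09). No depleted library overlapped another group's for either gene.

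The ratio of HSP90AA1 to HSP90AB1 within each library was therefore 2.54, 2.55 and 2.58 in depleted libraries, against 1.02 ± 0.022 in repleted and 1.00 ± 0.0278 in full libraries (SD, n = 3 each). This ratio is 1 of 4 pairs chosen after their values were seen, so its test adds no support of its own. An exact two-sided permutation test gave p = 0.1 for depleted against full medium, the smallest that 3 against 3 libraries allow (0.133 adjusted over the 12 tests of 4 ratios). The summed level of both genes was 1853 ± 31.8 RPKM in depleted, 1904 ± 46.9 in repleted and 1988 ± 30.2 in full libraries.

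Partners of HSP90 changed one by one. PTGES3 (ENSG00000110958, p23), which stabilises the closed form of HSP90, read 577, 574 and 588 RPKM in depleted, 391, 399 and 413 in repleted and 419.8, 404 and 418 in full libraries. All depleted libraries lay above the rest, with rises of 0.48 (adjusted p = 5.19e-07) against full and 0.53 (2.88e-07) against repleted medium. Lower in depleted than in full medium were FKBP4 (FKBP52, an immunophilin of steroid receptor complexes) at -0.39, STIP1 (HOP, which joins HSP70 to HSP90) at -0.19 and CDC37 (which brings kinases to HSP90) at -0.19, and each also passed against repleted medium (-0.36, -0.20 and -0.16). FKBP4 averaged 173 ± 5.92 RPKM in depleted, 222 ± 4.88 in repleted and 228 ± 1.69 in full libraries. STIP1 averaged 247 ± 14.1, 284 ± 9.84 and 281 ± 10.2 RPKM in the same order, and CDC37 140.4 ± 4.7, 157 ± 7.79 and 160.3 ± 3.92 RPKM. AHSA1, the activator of HSP90's ATPase, averaged 145 ± 12.0, 147 ± 4.20 and 155 ± 9.90 RPKM and did not pass (-0.09 against full medium), though it did without depleted library 1 (-0.16, adjusted p = 0.0426).

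CHORDC1, whose promoter is printed above, averaged 55.6 ± 4.4 RPKM in depleted, 55.1 ± 1.19 in repleted and 48.6 ± 2.19 in full libraries. Its difference of 0.19 against full medium passed (adjusted p = 0.0181) but was lost without full library 3 (0.0671), without depleted library 1 (0.0545) and under quantile normalization. STUB1 (ENSG00000103266, CHIP), a ubiquitin ligase that marks clients of HSP70 and HSP90 for degradation, read 77.5, 70.4 and 77.6 RPKM in depleted, 104, 96.7 and 91.5 in repleted and 108, 105 and 114 in full libraries. No depleted library reached the others, with differences of -0.53 against full (adjusted p = 3.72e-05) and -0.37 against repleted medium (adjusted p = 0.000376). Exons of STUB1 share 983 bases with JMJD8 on the opposite strand (GENCODE 29), which averaged 19.6, 41.1 and 42.7 RPKM in depleted, repleted and full libraries. Since it is not stated that counting used the strand, reads of the shared bases cannot be told apart, and the part of JMJD8 in the STUB1 values was not tested.

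The mitochondrial chaperones fell or held their level. TRAP1 (ENSG00000126602), the mitochondrial HSP90, read 84.9, 83.2 and 93.7 RPKM in depleted, 140.2, 142 and 146 in repleted and 141, 147 and 140.0 in full libraries, a difference of -0.71 against full (adjusted p = 1.14e-06) and of -0.70 against repleted medium. HSPD1 (ENSG00000144381), the HSP60 chaperonin, read 413, 422 and 416 RPKM in depleted, 617, 627 and 649 in repleted and 638, 632 and 616 in full libraries. It fell by 0.59 and 0.60 (adjusted p = 9.73e-08 and 9.02e-08). HSPE1 (ENSG00000115541), the HSP10 lid that closes the HSP60 cavity, read 339.9, 352 and 338 RPKM in depleted, 328, 335 and 349.9 in repleted and 344, 332 and 346 in full libraries. These groups overlapped, with differences of 0.01 (adjusted p = 0.771) and 0.02 (adjusted p = 0.539). DNAJA3, the mitochondrial J-domain protein, averaged 39.0 ± 1.05, 42.9 ± 3.54 and 38.5 ± 1.08 RPKM in depleted, repleted and full libraries and did not pass (-0.13 against repleted medium, adjusted p = 0.0816). That adjusted p was 0.00486 without repleted library 3 and 0.0441 under quantile normalization.

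HSPD1 and HSPE1 sit head to head on chromosome 2 with starts 105 bases apart, and their promoter windows share 204 bases. The HSPE1 window (chr2:197500129-197500428, plus strand, GRCh38.p14) is shown for this shared promoter, with the start bases of HSPD1 (first capital) and HSPE1 (second capital) marked.
HSPE1: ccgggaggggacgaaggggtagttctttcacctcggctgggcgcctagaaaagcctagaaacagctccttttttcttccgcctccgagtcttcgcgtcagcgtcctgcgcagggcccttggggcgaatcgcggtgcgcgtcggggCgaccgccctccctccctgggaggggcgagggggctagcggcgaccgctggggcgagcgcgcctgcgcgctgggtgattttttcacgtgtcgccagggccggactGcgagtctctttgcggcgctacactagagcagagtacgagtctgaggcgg
Within each library, HSPE1 stood at 0.823 ± 0.0109 of HSPD1 in depleted, 0.535 ± 0.00342 in repleted and 0.542 ± 0.0177 in full medium (SD, n = 3 each; exact two-sided permutation p = 0.1 for depleted against full medium, adjusted 0.133). This ratio, too, was chosen after its values were seen, so its test adds no support of its own. Exons of the pair share 281 bases on opposite strands in GENCODE 29, so part of the reads of each could belong to the other.

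Among small heat shock proteins, which hold unfolded proteins without ATP, HSPB1 (ENSG00000106211, HSP27) fell. It read 52.6, 47.5 and 49.8 RPKM in depleted, 136, 117 and 112 in repleted and 124, 119.9 and 119 in full libraries. The log2 difference was -1.26 against either medium (SE 0.07, adjusted p = 3.26e-07 against full), to 0.413 of the full level. HSPB11 (ENSG00000081870), the cilium transport protein, read 67.2, 71.2 and 66.8 RPKM in depleted, 44.9, 44.3 and 43.5 in repleted and 43.5, 43.4 and 42.0 in full libraries. It rose by 0.66 (adjusted p = 5.48e-07) and 0.62 (8.21e-07). HSPB8, the partner of BAG3 in clearing aggregates, averaged 8.73 ± 0.694, 7.67 ± 0.788 and 8.97 ± 0.809 RPKM in the same order and did not pass.

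Of 9 tested J-domain genes outside mitochondria, 5 rose and 1 fell in depleted against full medium, a called share of 66.7% beside 60.9% of all tested genes. DNAJB1 (ENSG00000132002), the chief heat-inducible HSP40, read 149.5, 149 and 154 RPKM in depleted, 58.8, 57.9 and 55.5 in repleted and 58.2, 61.9 and 59.5 in full libraries. Every depleted library lay far above the others, and the mean was 2.52 times the full level (1.32, SE 0.04, adjusted p = 8.20e-09) and 2.63 times the repleted level (1.38, adjusted p = 6.46e-09). DNAJB5 (ENSG00000137094), a related type B protein, read 5.88, 5.91 and 4.03 RPKM in depleted, 2.98, 2.51 and 2.49 in repleted and 2.72, 2.10 and 2.59 in full libraries, with rises of 0.84 (adjusted p = 0.00066) and 0.76 (0.00121).

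Smaller rises passed in both comparisons for DNAJB12 (0.48 and 0.49), DNAJB4 (0.44 and 0.49) and DNAJA2 (0.24 and 0.29). DNAJB12 averaged 25.4 ± 0.506 RPKM in depleted, 17.8 ± 0.921 in repleted and 18.0 ± 0.368 in full libraries. DNAJB4 averaged 17.9 ± 1.71, 12.5 ± 1.11 and 12.9 ± 0.911 RPKM in the same order. DNAJB2, a type B protein that passes clients to the proteasome, fell, with means of 11.8 ± 0.900, 15.5 ± 2.22 and 16.6 ± 1.83 RPKM and differences of -0.46 (adjusted p = 0.00458) and -0.36 (0.0156, which became 0.0561 without depleted library 3). DNAJB6, which holds back the growth of polyglutamine aggregates, rose against repleted medium (0.16, adjusted p = 0.00854) and not against full medium (0.10, adjusted p = 0.0647). The latter adjusted p was 0.0225 without full library 1, 0.0245 under median centring and 0.03325 under quantile normalization. DNAJC7, a partner of both HSP70 and HSP90, averaged 120.1 ± 2.8, 125 ± 1.92 and 124 ± 2.18 RPKM and did not pass.

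Among the zinc-binding type A proteins, which are too few to show a common direction, only DNAJA2 passed. DNAJA3, given with the mitochondrial chaperones, did not. DNAJA1, with 129 ± 1.72 RPKM in depleted, 130.1 ± 1.13 in repleted and 131 ± 3.08 in full libraries, did not pass (-0.02 and -0.01), DNAJA2 rose to 55.2 ± 1.70 RPKM in depleted against 45.0 ± 1.84 in repleted and 46.8 ± 0.864 in full libraries, and DNAJA4 was too low to be tested, at 0.18 to 0.57 RPKM over the 9 libraries.

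BAG proteins release nucleotide from HSP70 and link it to degradation. BAG1 (ENSG00000107262), which joins HSP70 to the proteasome, read 50.95, 50.98 and 54.4 RPKM in depleted, 23.2, 23.2 and 24.9 in repleted and 27.8, 25.1 and 22.3 in full libraries. It was 2.08 times as high in depleted as in full medium (1.03, SE 0.07, adjusted p = 2.13e-06) and 2.19 times as high as in repleted medium (1.10, adjusted p = 1.40e-06). BAG3 (ENSG00000151929), which routes clients to autophagy, read 41.9, 41.0 and 42.6 RPKM in depleted, 23.0, 20.3 and 22.9 in repleted and 21.0, 23.9 and 23.1 in full libraries, with rises of 0.86 (adjusted p = 2.54e-06) and 0.89 (1.95e-06).

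For both BAG1 and BAG3 no depleted library overlapped another group's. BAG2, an inhibitor of STUB1, averaged 20.3 ± 0.625, 18.1 ± 1.52 and 18.8 ± 0.528 RPKM in depleted, repleted and full libraries. It passed against repleted medium only at 0.0477 (0.16), and the call was lost in 11 of 15 settings, with adjusted p from 0.0596 to 0.1565 without any library other than repleted library 3. BAG5 averaged 12.5 ± 0.371, 13.5 ± 0.359 and 14.3 ± 0.415 RPKM and fell against full medium (-0.18, adjusted p = 0.0139), a call lost without full library 1 (0.053) and under median centring.

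**Figure D3:**
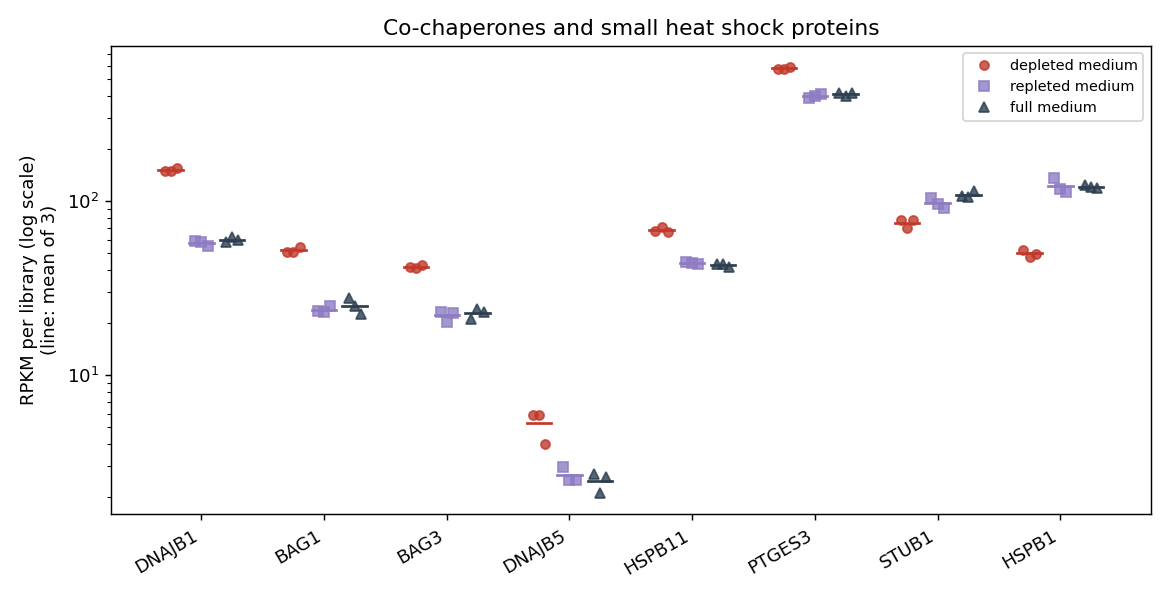
RPKM per library (log axis) of DNAJB1, BAG1, BAG3, DNAJB5, HSPB11, PTGES3, STUB1 and HSPB1 in depleted, repleted and full medium; points are single libraries and lines the mean of 3. DNAJB1, BAG1 and BAG3 stand higher in depleted libraries, with DNAJB1 near 151 RPKM against 57.4 in repleted and 59.9 in full libraries, and HSPB1 stands lower.

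The 8 subunits of CCT assemble in equal numbers, and of their RNAs 2 rose, 3 fell and 3 did not pass in each comparison with depleted medium. That is a called share of 62.5%, beside 60.9% of all tested genes against full and 60.7% against repleted medium. TCP1 (ENSG00000120438, subunit alpha) read 593, 594 and 599.9 RPKM in depleted, 386, 387 and 402 in repleted and 393, 403 and 405 in full libraries, with rises of 0.57 (SE 0.02, adjusted p = 8.60e-08) and 0.60 (6.34e-08). CCT7 (ENSG00000135624, subunit eta) showed the largest fall of all 49 tested members. It read 148, 151 and 145 RPKM in depleted, 399, 384 and 405 in repleted and 403, 391.7 and 389.8 in full libraries. The log2 difference was -1.41 against full (SE 0.03, adjusted p = 1.96e-09) and against repleted medium (adjusted p = 2.13e-09), to 0.375 of the full level.

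CCT3 (ENSG00000163468, subunit gamma) read 325, 353 and 336 RPKM in depleted, 488, 461 and 489 in repleted and 486, 474 and 482 in full libraries. It fell by 0.51 (adjusted p = 1.81e-06) and by 0.50 (1.92e-06). CCT8, subunit theta, averaged 232 ± 4.17, 277 ± 8.33 and 280.0 ± 3.49 RPKM in depleted, repleted and full libraries, with differences of -0.27 and -0.26. CCT5, subunit epsilon, averaged 568 ± 14.8, 518 ± 9.98 and 517 ± 12.0 RPKM and rose by 0.14 (adjusted p = 0.00237) and 0.13 (0.00268), differences that turned to -0.02 (0.554) and -0.02 (0.486) under quantile normalization. CCT2 at 221 ± 2.80, 224 ± 5.59 and 227 ± 1.09 RPKM did not pass, nor did CCT4 and CCT6A, whose differences lay between 0.00 and 0.06. CCT4 passed against repleted medium without repleted library 3 (0.09, adjusted p = 0.0213) and under median centring (0.11, adjusted p = 0.0375).

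The spread between subunits was thereby wider in depleted libraries. The highest subunit stood 4.03 ± 0.111 times above the lowest in depleted medium (TCP1 over CCT7), 2.31 ± 0.0234 times in repleted and 2.28 ± 0.0425 times in full medium (CCT5 over CCT2 in both; SD, n = 3 each). The coefficient of variation over the 8 subunits averaged 48.1% in depleted, 29.3% in repleted and 28.9% in full libraries. TCP1 stood at 4.03 ± 0.111 times CCT7 in depleted, 0.989 ± 0.020 in repleted and 1.01 ± 0.0350 in full libraries (exact two-sided permutation p = 0.1 for depleted against full medium, adjusted 0.133). This pair was chosen after its values were seen, and TCP1 rose and CCT7 fell most of the 8 subunits. The separation of the groups and its p-value therefore add no support of their own. Summed over subunits, the level was 2732 ± 38.5 RPKM in depleted, 2897 ± 74.2 in repleted and 2916 ± 32.0 in full libraries. Exons of TCP1 share 397 bases with ACAT2 on the opposite strand, which averaged 129.5, 128 and 127 RPKM in the same order.

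**Figure D4:**
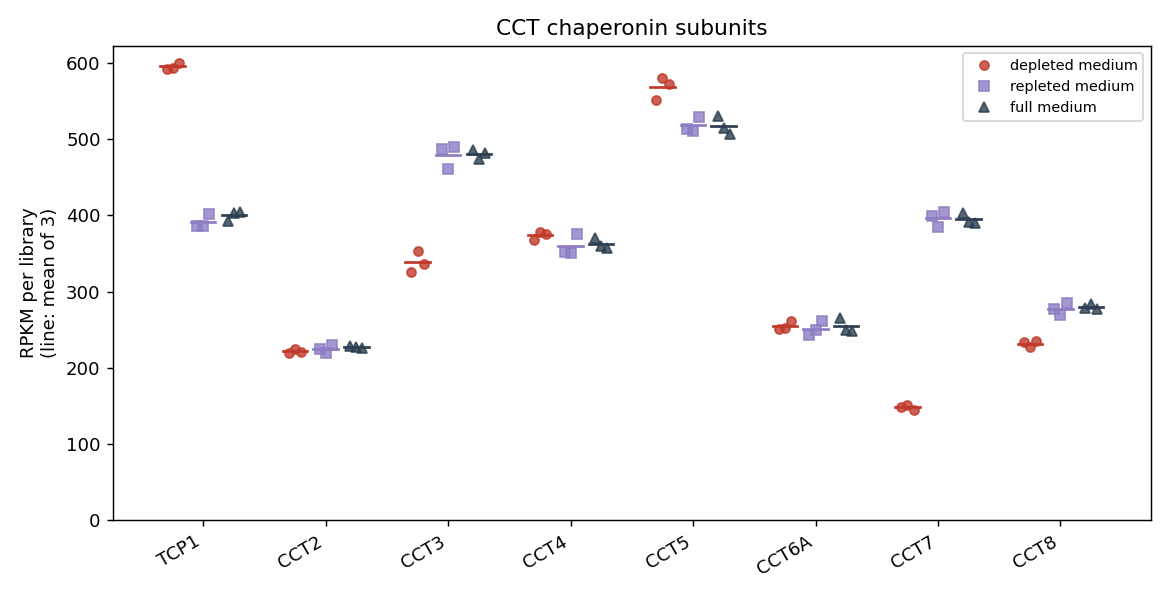
RPKM per library of the 8 CCT subunit genes in depleted, repleted and full medium; points are single libraries and lines the mean of 3. TCP1 averages 596 RPKM and CCT7 148 RPKM in depleted libraries, against 400.1 and 395 RPKM in full libraries, while CCT2, CCT4 and CCT6A stay at similar levels.

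**Figure D5:**
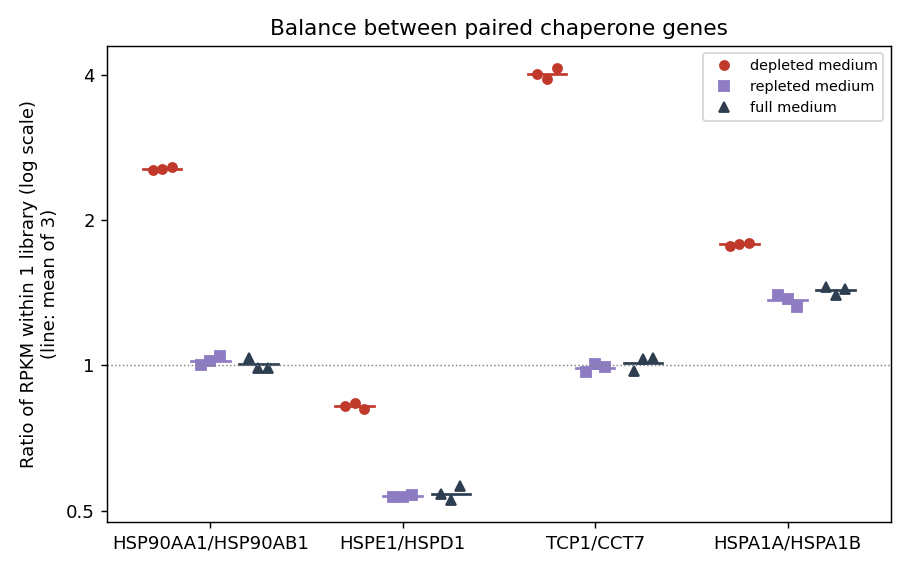
Ratio of RPKM between members of a pair within each library (log axis) in depleted, repleted and full medium; points are single libraries and lines the mean of 3. All 4 ratios are higher in every depleted library, with TCP1/CCT7 near 4.03 and HSP90AA1/HSP90AB1 near 2.56. The pairs were chosen after their values were seen, so that shared direction follows from the choice.

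Genes of the same pathway outside the set also moved both ways, and the counts below stand beside 29.8% of all tested genes called higher and 31.2% called lower against full medium. Of 10 prefoldin and CCT cofactor genes, 5 rose and 2 fell in depleted against full medium. PDCL3, a phosducin-like cofactor of CCT, averaged 76.4 ± 6.19 RPKM in depleted, 35.5 ± 1.92 in repleted and 38.0 ± 0.909 in full libraries (0.99), and PFDN5, a prefoldin subunit that hands clients to CCT, 93.2 ± 6.03, 202 ± 5.23 and 203 ± 5.51 RPKM (-1.11). TXNDC9 (0.52) also rose and PFDN6 (-0.39) also fell. Of 18 other cofactors and HSP70 genes, 8 rose and 4 fell, and the 8 include HSPA6, which passed the filter through its depleted libraries alone and so had to differ. HSPBP1, a nucleotide exchange factor of HSP70, was higher (0.51), the mitochondrial HSP70 gene HSPA9 lower (-0.61), and TTC4, an HSP90 co-chaperone, fell most, with 8.67 ± 1.17 RPKM in depleted, 40.6 ± 2.60 in repleted and 39.0 ± 1.66 in full libraries (-2.05).

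Of 15 further J-domain genes tested, 4 rose and 5 fell, with DNAJC27 (0.60) and DNAJC14 (0.48) the largest rises and DNAJC18 (-1.73) and DNAJC16 (-1.02) the largest falls. Of 7 tested genes among another heat shock factor and further genes listed as HSF1 targets, 1 rose and 5 fell. This list leaves out HSPA6 and the members, whose inducible genes went both ways (DNAJB1 and HSP90AA1 higher, HSPA1A and HSPA1B lower). DEDD2 rose to 52.1 ± 1.2 RPKM in depleted, against 24.7 ± 0.747 in repleted and 24.2 ± 1.52 in full libraries (1.07). SERPINH1, the collagen chaperone HSP47, averaged 36.4 ± 1.46, 79.9 ± 0.866 and 82.9 ± 2.93 RPKM (-1.16), and the mitochondrial disaggregase CLPB (-0.55) was lower as well. Against repleted medium the counts were 3 up and 2 down, 7 up (HSPA6 among them) and 4 down, 4 up and 5 down, and 1 up and 5 down in these lists, beside 29.5% and 31.2% of all tested genes.

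In repleted against full medium, 0 of the 49 members passed with limma, with 0.0317% of all tested genes called, and their differences lay between -0.20 and 0.18 with a median of -0.03. At an unadjusted p under 0.05 there were 7 members, 2 higher (CHORDC1 and DNAJA3) and 5 lower (HSF2, HSP90AB1, STUB1, HSPA4L and HSPA1A), which is 14.3% of those tested against 7.76% of all genes, and their lowest adjusted p was 0.44. The libraries of these groups did not overlap for 7 members, against 12.4% of all tested genes. All members together took 2.84% ± 0.0208 of length-weighted RPKM in depleted, 3.19% ± 0.0385 in repleted and 3.28% ± 0.0171 in full libraries (SD, n = 3 each).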

How the data were processed

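Gene levels were deposited by the authors as log2(RPKM + 1) per library, per the file headers, on Ensembl identifiers. The submitters' processing notes list hg19, GRCh37, bedtools 2.25.0.3, BWA 0.7.12-r1039, Bowtie 1.0.1 and RSEM 1.2.6, without roles. The log was undone to give RPKM. The table held 57766 genes, 20320 blank rows and no counts, so depth was estimated (60.5% to 67.3% of checked low values were whole reads within 0.1 read) and no interval was computed from it.

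All 15774 genes that reached 1 RPKM in 3 or more libraries were tested with limma 3.58.1 (R 4.3.3) on the deposited log2 values, with a variance trend and 1 mean per group over all 9 libraries, which was checked on simulated data. The labels do not say that a replicate number marks a shared culture, so libraries were not treated as pairs. Residuals of libraries with the same replicate number correlated at -0.01 to 0.07, and those with different numbers at -0.06 to 0.04. That check does not exclude weak pairing. The members and lists were chosen with earlier results of these data known. Values per library are given for members called with a change of at least 0.5 and for 10 genes such as HSF1 and HSPA1A whatever their change, and the 2 largest called changes each way are named for the other lists. The 4 ratios were chosen after their values were seen. Promoters come from RefSeq (GRCh38.p14) and exon overlaps from GENCODE 29, both of a newer genome build than hg19 and used for sequences, motifs, distances between starts and shared bases.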

Additional observations from a re-analysis of the deposited data

How the results depend on the processing

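The model was refitted with a pseudocount of 0.1, without the filter, with only the 6 libraries compared, with the replicate number as a block, without each library in turn, with median centring and with quantile normalization. Counts of called members stayed within 1.5 times throughout: without 1 library, 17 to 20 rose and 14 to 16 fell against full medium, and 18 to 22 rose and 13 to 15 fell against repleted medium. The other settings gave 18 to 21 and 14 to 17 against full medium, and 18 to 23 and 14 to 16 against repleted medium, and 0 in repleted against full medium under every setting. With the replicate block, 18 rose and 16 fell against full medium and 21 rose and 14 fell against repleted medium, with HSPA4 (0.13, adjusted p = 0.0834) and HSPA13 (0.15, adjusted p = 0.0526) no longer passing, and no other call changed.

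Of the members called in the main fit, only CCT5 changed sign. It was at -0.0202 against full and -0.0239 against repleted medium under quantile normalization. It did not pass there (limma adjusted p = 0.554 and 0.486), and the cause was not tested. Of the fits of single members under alternatives, 705 against full medium and 694 against repleted medium kept their call, while 21 and 35 lost it without a change of sign and 8 and 5 gained it. CCT5 under quantile normalization also lost it and is counted apart. Called members among those that kept it also kept their direction. The direction of members that did not pass was not counted, and some near 0 changed sign. HSPE1, for example, was at 0.0114 against full medium and at -0.0070 without full library 2. Besides CCT5, those that lost their call were BAG5, CHORDC1, HSPA4 and HSPA8 against full medium and BAG2, DNAJB2, HSF1, HSPA13 and HSPA4 against repleted medium, all with differences under 0.4 in size. Those that gained it were AHSA1, DNAJB6, HSF1 and HSPH1 against full medium and CCT4, DNAJA3 and HSPA8 against repleted medium. Depth limits what can be said of CRYAB and DNAJA4.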

Other observations

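Among the weakest genes, CRYAB, a small heat shock protein of lens and muscle, read 0.97, 1.5 and 2.76 RPKM in depleted, 0, 0.20 and 0.13 in repleted and 0.28, 0.11 and 0 in full libraries, and was too low to be tested. HSPA6, a strictly heat-inducible HSP70 gene, read 2.22, 1.93 and 1.83 RPKM in depleted, 0.14, 0.24 and 0.13 in repleted and 0.18, 0.10 and 0.17 in full libraries. HSPA6 passed the filter through its depleted libraries alone, so a difference from the other media was fixed by the filter. The lack of overlap of HSPA6 between depleted libraries and the rest was fixed in the same way. CRYAB did not overlap either, but its values are low and were not tested.

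Further exon overlaps on opposite strands included those of DNAJB1 with TECR (211 bases; TECR averaged 130.2, 103 and 99.8 RPKM in depleted, repleted and full libraries), DNAJC7 with NKIRAS2 (484 bases; 25.4, 63.7 and 62.8 RPKM), BAG2 with RAB23 (2842 bases; 18.2, 12.8 and 13.1 RPKM), TRAP1 with DNASE1 (1531 bases; 8.66, 7.07 and 5.94 RPKM), AHSA1 with VIPAS39 (83 bases; 16.04, 9.01 and 8.91 RPKM) and CCT4 with COMMD1 (81 bases; 10.8, 23.5 and 25.5 RPKM). Their part in the members' values was not tested.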
